A study of Homo sapiens with 20 samples.

Results

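The genes described are 44 genes of glycolysis and of the response to low oxygen. They were listed by symbol, with earlier results of these data known. They comprise 15 glycolytic enzymes, 3 bifunctional enzymes that regulate phosphofructokinase, 5 genes of pyruvate and lactate handling, 18 other genes known as targets of the hypoxia-inducible factors (HIFs) and 3 HIF subunits. A probe annotated to the gene was found for 41 of the 44, and 69 of their 74 probes had a detection p under 0.05 on at least 2 arrays, out of 29551 such probes of 15059 named genes among 47319 probes on the array. The expression of SLC16A1, SLC16A3 and CA9 is not analysed here. Each gene is given by 1 probe, the one with the highest mean signal, and levels are compared between cultures for the same probe and never between genes.

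Gene expression was measured on Illumina beadchips in 5 established lines of triple-negative breast cancer (TNBC), namely BT549, SUM 149, MDA-MB-157, MDA-MB-231 and MDA-MB-468. All cultures were kept without serum for 24 h. Cultures of each line were then either left untreated or given 5% of a pool of wound healing fluids (WHFs), drained after breast cancer surgery, for 48 h. Each of the 10 groups has 2 cultures, A and B, which makes 20 arrays, and each line stands for 1 tumor, so that a difference between lines is a difference between these lines.

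Glycolysis splits glucose into pyruvate and yields ATP without oxygen. HIFs are pairs of an α subunit, such as HIF1A or EPAS1, with the β subunit ARNT. While oxygen is present the prolyl hydroxylases of the EGLN family mark the α subunits for destruction, and when it is scarce the complex binds short DNA motifs and switches on glucose transporters, most glycolytic enzymes, lactate dehydrogenase and genes for blood vessel growth, collagen processing and mitochondrial removal. Many tumor cells run this program in the presence of oxygen.

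Values are log2 of the background-corrected, quantile-normalized signal, a response is the WHF-treated minus the untreated mean of a line, and a gene is called where limma's adjusted p was under 0.1. Between 19693 and 22865 probes were detected per array, and the nearest array of each of the 20 was the other culture of its own group. MDA-MB-231 was on a chip of its own, MDA-MB-468 and SUM 149 shared a chip and BT549 and MDA-MB-157 shared another, so that untreated levels of lines on different chips cannot be told apart from the chip. Of 10 measured markers of leukocytes and blood, which a wound fluid could carry, PTPRC, CD3D and CD3E were not detected on any array. FCGR3B was detected on all arrays, at 7.50 to 8.18 in untreated and 7.73 to 8.32 in WHF-treated groups. Its mean was higher after WHFs in every line. The mean log2 signal over the 10 was 5.59 to 5.86 in the untreated and 5.61 to 6.05 in the WHF-treated groups, and CD163, a macrophage marker, was at 5.92 in untreated and 9.23 in WHF-treated BT549. The levels of CSF1R, another myeloid marker, were 5.97 and 7.03 in untreated and treated MDA-MB-468 and 7.40 and 5.83 in MDA-MB-231, and those of HBA2, a globin gene of red blood cells, 6.31 and 7.62 in SUM 149 and 6.45 and 5.84 in MDA-MB-157. The part of such RNA in the results was not tested. VIM, a mesenchymal marker, was detected on all arrays, and CDH1, an epithelial marker, on all 4 arrays only in MDA-MB-468 and SUM 149. The epithelial markers EPCAM and KRT18 were undetected only in BT549, and KRT19 only in BT549 and MDA-MB-157. The mesenchymal marker ZEB1 was detected only in BT549 and MDA-MB-231. CDH2 was undetected only in MDA-MB-468, and FN1 was detected in every line. Of the receptor genes, ESR1 was detected on all arrays of SUM 149 and MDA-MB-468, PGR on all of MDA-MB-157 and ERBB2 in every line. In these bulk cultures, fewer cells of a kind and less RNA per cell cannot be told apart.

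WHFs lowered many of these genes in BT549 and MDA-MB-231 and raised more than they lowered in MDA-MB-157. In BT549, 23 of 41 genes were called lower, where 16.5% of all genes tested were lower, and 4 were called higher, against 13.4% of all genes. In MDA-MB-231, 15 of 41 were lower (12.4% of all genes) and 5 were higher (8.79% of all genes). In MDA-MB-157, 7 of 41 were higher (3.9% of all genes) and only ALDOC was lower (5.33% of all genes). In MDA-MB-468, 2 were higher (3.15% of all genes) and 2 were lower (2.94% of all genes). In SUM 149, 1 was higher (12% of all genes) and 8 were lower (17% of all genes), so that 8 of 41 is close to that background. The 68 calls were checked by leaving out each array of the line in turn. In MDA-MB-231, 1 of the 5 higher and 10 of the 15 lower calls passed every time. For BT549 these were 2 of 4 and 15 of 23, for MDA-MB-157 2 of 7 and 0 of 1, for MDA-MB-468 0 of 2 and 1 of 2 and for SUM 149 0 of 1 and 5 of 8. The higher calls became 8 in MDA-MB-231 and 4 in SUM 149, and the lower calls 13 in SUM 149, without background correction. The shares of all genes were not computed for that setting, so these counts cannot be set against the shares above.

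**Figure D1:**
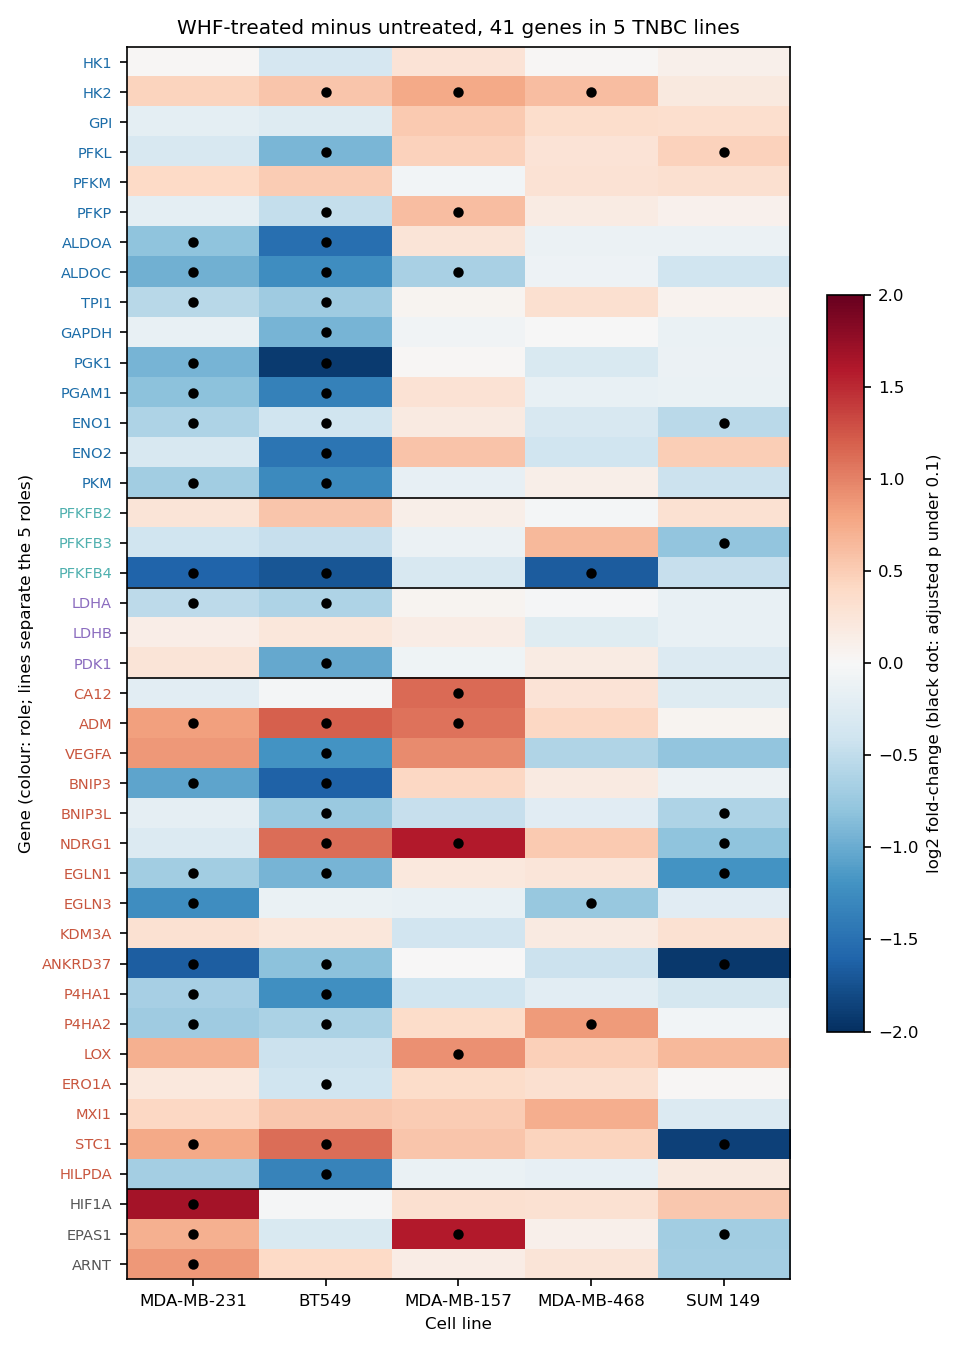
The colour gives the log2 fold-change of WHF-treated over untreated cultures for each of 41 genes (rows, ordered by role from the first glycolytic enzymes to the HIF subunits) in 5 cell lines (columns), and a black dot marks an adjusted p under 0.1. The run of blue cells with dots among the enzymes from ALDOA to PKM stands mainly in BT549 and MDA-MB-231, and the 3 HIF subunits are all red with a dot only in MDA-MB-231.

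The 21 measured glycolysis genes and the 17 other HIF targets had medians of the same sign in each line except MDA-MB-468. The glycolysis medians of SUM 149 and MDA-MB-468 were small, so that their signs carry little weight. The median response of the glycolysis genes was −0.71 in BT549 and −0.32 in MDA-MB-231, with 14 and 9 of 21 called lower, and that of the other HIF targets was −0.44 and −0.21, with 9 and 6 of 17 called lower. MDA-MB-157 gave medians of 0.12 and 0.37, SUM 149 of −0.11 and −0.25 and MDA-MB-468 of −0.00 and 0.23. The median over all 15059 genes lay between −0.03 and −0.00 in each line. Cultures A and B gave medians of −0.92 and −0.70 for the glycolysis genes in BT549, of −0.19 and −0.48 in MDA-MB-231 and of 0.00 and −0.07 in SUM 149. The 15 glycolytic enzymes alone had medians of 0.07 in SUM 149 and 0.02 in MDA-MB-468. By these enzymes, SUM 149 was the line whose sign differed from that of the other HIF targets.

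**Figure D2:**
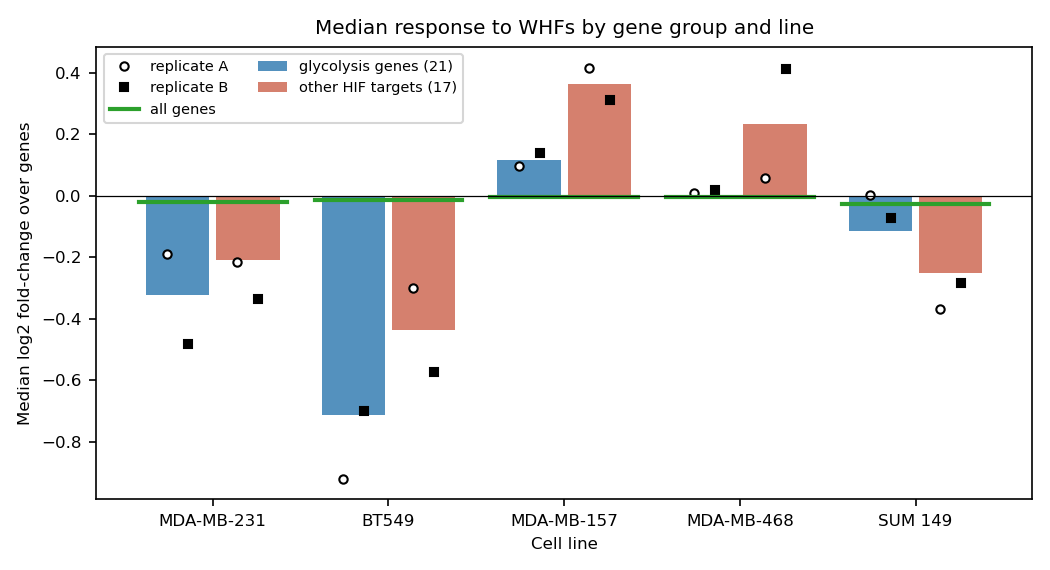
Bars show the median log2 fold-change of 21 glycolysis genes (blue) and 17 other HIF targets (red) in each line, circles and squares the same median from culture A and culture B alone, and the green line the median of all 15059 genes. Both replicates lie below the green line for both groups in MDA-MB-231 and BT549 and above it in MDA-MB-157.

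HIFs bind short motifs with the core ACGTG or GCGTG, and these letters were looked for in the promoters. In the 250 bases before the RefSeq start (GRCh38.p14), 24 (64.9%) of the 37 promoters found for the 44 listed genes, those of CA9 and SLC16A3 included, held ACGTG or GCGTG on either strand, compared with 43.1% of 27305 promoters. ACGTG alone was found in 40.5% of the 37 and 18.7% of all, and GCGTG in 37.8% and 31.9%. The genes were listed for their part in glycolysis and the response to low oxygen, so these shares describe the list and not the responses. The 27305 promoters were neither limited to the measured genes nor matched for base composition. Either one was held by 12 of the 21 promoters found for glycolysis genes (57.1%) and by 10 of the 13 found for other HIF targets (76.9%), which are not the same genes as the 21 and 17 with expression values. Promoters of PGK1, ALDOC, BNIP3 and ANKRD37, all called lower in BT549 and MDA-MB-231, are shown because they hold such matches and are printed 5′ to 3′ on the strand of the gene, with matches of both motifs, or of their reverse complements CACGT and CACGC, in capitals. The palindrome CACGTG holds both ACGTG and CACGT, which overlap there, and a match is no evidence of binding.
PGK1, chrX:78103998-78104247, plus strand: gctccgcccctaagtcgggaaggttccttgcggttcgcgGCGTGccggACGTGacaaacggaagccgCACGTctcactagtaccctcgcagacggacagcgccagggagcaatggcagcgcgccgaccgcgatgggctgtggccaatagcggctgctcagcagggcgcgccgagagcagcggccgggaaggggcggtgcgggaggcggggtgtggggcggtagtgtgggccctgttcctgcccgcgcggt
ALDOC, chr17:28576896-28577145, minus strand: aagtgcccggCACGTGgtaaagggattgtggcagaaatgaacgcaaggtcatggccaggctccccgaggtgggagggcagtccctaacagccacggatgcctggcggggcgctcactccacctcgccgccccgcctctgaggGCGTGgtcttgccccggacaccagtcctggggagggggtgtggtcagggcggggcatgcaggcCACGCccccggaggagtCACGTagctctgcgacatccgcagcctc
BNIP3, chr10:131981924-131982173, minus strand: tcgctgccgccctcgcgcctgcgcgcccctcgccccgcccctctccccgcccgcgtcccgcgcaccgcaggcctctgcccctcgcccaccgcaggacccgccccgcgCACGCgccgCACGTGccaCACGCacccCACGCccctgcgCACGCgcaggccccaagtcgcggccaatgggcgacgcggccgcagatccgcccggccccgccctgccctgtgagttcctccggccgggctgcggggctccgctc
ANKRD37, chr4:185396591-185396840, plus strand: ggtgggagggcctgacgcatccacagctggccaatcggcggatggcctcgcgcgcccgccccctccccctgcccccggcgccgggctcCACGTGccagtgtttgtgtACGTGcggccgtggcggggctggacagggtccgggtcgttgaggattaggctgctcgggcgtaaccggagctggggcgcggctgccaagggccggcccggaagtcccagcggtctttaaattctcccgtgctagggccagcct
The matches numbered 6 for BNIP3, 5 for ALDOC and 3 each for PGK1 and ANKRD37. The promoter of HK2, which rose in BT549, held 3 as well, whereas those of TPI1, PGAM1, PKM and P4HA2, which were also called lower in BT549 and MDA-MB-231, held 0.

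At the entry of glycolysis, HK2 was called higher in BT549, MDA-MB-157 and MDA-MB-468, with a positive response in 5 of 5 lines. HK2 encodes an inducible hexokinase, which phosphorylates glucose. The HK2 signal was 11.04 and 10.85 in untreated and 11.66 and 11.34 in WHF-treated BT549 cultures, 9.26 and 9.59 against 10.22 and 10.15 in MDA-MB-157 and 9.75 and 9.72 against 10.31 and 10.38 in MDA-MB-468. In each of these lines both WHF-treated cultures were above both untreated ones. In the other lines it was 10.15 and 10.26 against 10.85 and 10.44 in MDA-MB-231 and 10.39 and 9.99 against 10.43 and 10.35 in SUM 149, where the WHF-treated cultures lay above in MDA-MB-231 and the groups overlapped in SUM 149. The log2 fold-changes were 0.56 in BT549 (adjusted p = 0.0458), 0.76 in MDA-MB-157 (adjusted p = 0.0262), 0.61 in MDA-MB-468 (adjusted p = 0.099), 0.44 in MDA-MB-231 (adjusted p = 0.143) and 0.20 in SUM 149 (adjusted p = 0.526), with a standard error of 0.188. A difference of the HK2 response between the lines did not pass limma's F test of the interaction of line and treatment (F = 1.25, adjusted p = 0.479). The BT549 call was lost at 0.39 without WHF-treated culture A and 0.46 without untreated culture B, the MDA-MB-157 call at 0.60 without untreated culture A and 0.73 without WHF-treated culture A, and the MDA-MB-468 call without any 1 of the 4 arrays (0.58 to 0.64). A second HK2 probe gave 0.10 in BT549 (adjusted p = 0.839), 0.66 in MDA-MB-157 (adjusted p = 0.109) and 0.61 in MDA-MB-468 (adjusted p = 0.182), none of them called, and 0.60 in MDA-MB-231 (adjusted p = 0.0887), which was. HK1, the constitutive hexokinase, was called in none of the 5 lines, with responses between −0.33 and 0.27.

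GPI, which turns glucose phosphate into fructose phosphate, was called in no line either, with 0.53 in MDA-MB-157 (adjusted p = 0.172) as the farthest from 0. The next, committed step is made by phosphofructokinase, whose liver, muscle and platelet forms are PFKL, PFKM and PFKP. PFKL fell by 0.91 in BT549 (adjusted p = 0.00218) and rose by 0.47 in SUM 149 (adjusted p = 0.0895), a call that was lost without any 1 of the 4 SUM 149 arrays (0.38 to 0.56). PFKP fell by 0.47 in BT549 (adjusted p = 0.0904) and rose by 0.62 in MDA-MB-157 (adjusted p = 0.0766). The first PFKP call was lost at −0.32 without WHF-treated culture A and −0.32 without untreated culture B and the second at 0.62 without untreated culture A, 0.44 without WHF-treated culture A and 0.61 without untreated culture B. PFKM was called in no line, with responses of −0.05 to 0.50. The responses of PFKL and PFKP differed between the lines by limma's F test of the interaction of line and treatment (F = 10.5, adjusted p = 0.00315 and F = 4.74, adjusted p = 0.0441).

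Of the 3 regulators that make or break down the activator of phosphofructokinase, PFKFB4 had the strongest fall. The PFKFB4 signal was 10.63 and 10.91 in untreated and 9.14 and 9.19 in WHF-treated MDA-MB-231 cultures, 10.77 and 11.29 against 9.22 and 9.41 in BT549 and 9.32 and 9.50 against 7.54 and 7.95 in MDA-MB-468. In these lines every WHF-treated culture was more than 1 log2 unit below every untreated one. It was 9.59 and 9.17 against 9.02 and 8.81 in SUM 149 and 7.41 and 7.49 against 6.90 and 7.38 in MDA-MB-157, where the groups were nearer but did not overlap. PFKFB4 fell with −1.60 in MDA-MB-231 (adjusted p = 0.000213), −1.72 in BT549 (adjusted p = 5.02e-05) and −1.66 in MDA-MB-468 (adjusted p = 0.000463), with a standard error of 0.221, and these calls held without each array. The responses of −0.46 in SUM 149 (adjusted p = 0.167) and −0.32 in MDA-MB-157 (adjusted p = 0.555) did not pass, and the response differed between the lines (F = 9.99, adjusted p = 0.00386). PFKFB3, whose product mostly makes the activator, fell by 0.79 in SUM 149 (adjusted p = 0.0106), where another of its probes gave 0.30 (adjusted p = 0.484). PFKFB2, the form best known from heart, was called in no line by its main probe, with responses of −0.04 to 0.56, although another probe gave −1.003 in SUM 149 (adjusted p = 0.0228).

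The aldolases, which split the 6-carbon sugar, fell in BT549 and MDA-MB-231. ALDOA, the main form in most tissues, was at 13.44 and 13.67 in untreated and 12.70 and 12.81 in WHF-treated MDA-MB-231 cultures and 13.97 and 14.16 against 12.35 and 12.77 in BT549. In both lines all WHF-treated values were below all untreated ones. It was 12.86 and 12.60 against 13.10 and 12.87 in MDA-MB-157, 13.62 and 13.55 against 13.45 and 13.50 in SUM 149 and 12.91 and 12.86 against 12.83 and 12.70 in MDA-MB-468. There the WHF-treated cultures were slightly higher in MDA-MB-157 and slightly lower in the others, without a call. ALDOA fell with −0.80 in MDA-MB-231 (adjusted p = 0.00586) and −1.504 in BT549 (adjusted p = 1.72e-05), with a standard error of 0.172, and the response differed between the lines (F = 16.4, adjusted p = 0.000578). ALDOC, known best from brain, was at 10.24 and 10.18 in untreated and 9.23 and 9.27 in WHF-treated MDA-MB-231 cultures, 12.16 and 12.04 against 10.91 and 10.80 in BT549 and 7.49 and 7.49 against 6.81 and 6.88 in MDA-MB-157, with no overlap in any of them. In the remaining lines it was 7.42 and 6.98 against 7.09 and 7.10 in MDA-MB-468, where the groups overlapped, and 11.16 and 11.25 against 10.49 and 11.12 in SUM 149, where they did not. ALDOC fell with −0.96 in MDA-MB-231 (adjusted p = 0.00342), −1.25 in BT549 (adjusted p = 0.000222) and −0.64 in MDA-MB-157 (adjusted p = 0.0683), with a standard error of 0.191. The MDA-MB-157 call was lost without any 1 of its 4 arrays (−0.68 to −0.60).

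PGK1 had the largest fall of the glycolytic enzymes, in BT549. PGK1 is phosphoglycerate kinase, the first ATP-producing step of the pathway. The PGK1 signal was 14.25 and 14.44 in untreated and 12.18 and 12.67 in WHF-treated BT549 cultures and 14.53 and 14.37 against 13.59 and 13.45 in MDA-MB-231. WHF-treated cultures were the lower ones in both lines, by more than 1.5 log2 units in BT549. It was 12.98 and 13.05 against 13.12 and 12.97 in MDA-MB-157, 13.90 and 13.69 against 13.74 and 13.62 in SUM 149 and 13.54 and 13.46 against 13.13 and 13.26 in MDA-MB-468. The groups overlapped in MDA-MB-157 and, by the higher WHF-treated culture, in SUM 149. PGK1 fell by 1.92 in BT549 (adjusted p = 2.14e-06), which is 3.79-fold, and by 0.94 in MDA-MB-231 (adjusted p = 0.00197), with a standard error of 0.172. It gave −0.31 in MDA-MB-468 (adjusted p = 0.462), −0.11 in SUM 149 (adjusted p = 0.725) and 0.03 in MDA-MB-157 (adjusted p = 0.969) in the lines without a call, and the lines differed (F = 21.7, adjusted p = 0.000189).

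Enzymes on either side of PGK1 fell in BT549, and TPI1, PGAM1 and PKM fell in MDA-MB-231 as well. TPI1, which interconverts the triose phosphates, fell with −0.71 in BT549 (adjusted p = 0.0055) and −0.55 in MDA-MB-231 (adjusted p = 0.0366), the second lost at −0.55 without untreated culture A, −0.41 without WHF-treated culture B and −0.55 without untreated culture B. GAPDH, often used as a reference gene, fell by 0.93 in BT549 (adjusted p = 0.000289), where its probe lay at 33.9% to 81.2% of the highest signal of the array, and gave −0.15 in MDA-MB-231 (adjusted p = 0.596) and −0.13 to −0.00 in the other lines. PGAM1, the phosphoglycerate mutase, fell with −1.34 in BT549 (adjusted p = 0.000125) and −0.82 in MDA-MB-231 (adjusted p = 0.0097). ENO2, the neuronal enolase, fell by 1.46 in BT549 (adjusted p = 0.000101), while ENO2 in SUM 149 and MDA-MB-157 gave 0.49 and 0.56 without a call. PKM, pyruvate kinase, fell with −1.27 in BT549 (adjusted p = 0.000103) and −0.70 in MDA-MB-231 (adjusted p = 0.0152), the latter lost at −0.61 without WHF-treated culture B and −0.55 without untreated culture B.

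ENO1, the main enolase, was the only glycolytic enzyme called lower in SUM 149. The ENO1 signal was 14.92 and 14.97 in untreated and 14.41 and 14.40 in WHF-treated SUM 149 cultures, 15.13 and 15.20 against 14.61 and 14.49 in MDA-MB-231 and 15.75 and 15.77 against 15.25 and 15.47 in BT549, with every WHF-treated value below every untreated one. It was 14.90 and 15.00 against 15.18 and 15.08 in MDA-MB-157 and 14.33 and 14.61 against 14.13 and 14.18 in MDA-MB-468. MDA-MB-157 was the only line in which the WHF-treated cultures were the higher ones. ENO1 fell with −0.54 in SUM 149 (adjusted p = 0.0162), −0.62 in MDA-MB-231 (adjusted p = 0.0107) and −0.40 in BT549 (adjusted p = 0.0678), with a standard error of 0.147, and gave −0.32 in MDA-MB-468 (adjusted p = 0.333). In BT549 the probe lay at 73.6% to 91.4% of the highest signal of its array, near the top of the scale, and the call was lost at −0.41 without untreated culture A, −0.29 without WHF-treated culture A and −0.39 without untreated culture B.

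Among the genes at the end of the pathway, LDHA, the lactate dehydrogenase form that favours lactate, fell with −0.62 in BT549 (adjusted p = 0.0109) and −0.52 in MDA-MB-231 (adjusted p = 0.0422). The BT549 call was lost at −0.48 without WHF-treated culture A and −0.53 without untreated culture B and that of MDA-MB-231 at −0.56 without untreated culture A, −0.46 without WHF-treated culture B and −0.48 without untreated culture B. LDHB, the form that favours pyruvate, was called in no line, with responses of −0.24 to 0.22. PDK1, which shuts off pyruvate dehydrogenase and so the entry of pyruvate into mitochondria, was detected on 6 of 20 arrays. It was 6.45 and 6.39 in untreated and 5.24 and 5.57 in WHF-treated BT549 cultures, where both treated cultures were below background, so that the fall was at least 1.65-fold (adjusted p = 0.00157). A bound of this kind sets the treated mean at the lowest detected signal of the array or at the probe's own signal where higher.

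Among regulators and close targets of HIFs, EGLN1 and ANKRD37 fell in MDA-MB-231, BT549 and SUM 149. EGLN1, the main prolyl hydroxylase that marks HIF α subunits, was at 8.59 and 8.70 in untreated and 7.87 and 8.01 in WHF-treated MDA-MB-231 cultures, 9.40 and 9.55 against 8.83 and 8.26 in BT549 and 9.87 and 9.61 against 8.72 and 8.35 in SUM 149. The treated cultures were lower in all 3 lines without overlap. It was 8.52 and 8.51 against 8.77 and 8.70 in MDA-MB-157 and 8.29 and 8.12 against 8.35 and 8.53 in MDA-MB-468, where they were slightly higher. EGLN1 fell with −1.20 in SUM 149 (adjusted p = 0.000395), −0.93 in BT549 (adjusted p = 0.00241) and −0.70 in MDA-MB-231 (adjusted p = 0.0237), with a standard error of 0.192, and the lines differed (F = 11.9, adjusted p = 0.00202). The MDA-MB-231 call was lost at −0.63 without WHF-treated culture A and −0.64 without untreated culture B. EGLN3, an inducible prolyl hydroxylase, was detected on 6 arrays. It fell by at least 1.28-fold in MDA-MB-231, where both treated cultures were below background (adjusted p = 0.000621), and by 0.76 in MDA-MB-468 (adjusted p = 0.0441), a call lost at −0.52 without untreated culture A and −0.59 without WHF-treated culture B.

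ANKRD37, an ankyrin-repeat gene whose promoter is printed with the CACGTG palindrome, had the largest fall of any member in SUM 149. The ANKRD37 signal was 11.15 and 10.59 in untreated and 9.34 and 8.55 in WHF-treated SUM 149 cultures, 9.59 and 9.81 against 7.97 and 8.15 in MDA-MB-231 and 8.51 and 8.87 against 7.83 and 7.92 in BT549. All treated values were below all untreated ones. It was 6.08 and 6.38 against 5.90 and 5.71 in MDA-MB-468, also without overlap, and 7.64 and 7.75 against 7.73 and 7.68 in MDA-MB-157, within the spread of the untreated pair. ANKRD37 fell by 1.93 in SUM 149 (adjusted p = 4.58e-05), which is 3.8-fold, by 1.65 in MDA-MB-231 (adjusted p = 0.000341) and by 0.82 in BT549 (adjusted p = 0.0235), with a standard error of 0.24. The BT549 call was lost at −0.77 without WHF-treated culture A and −0.63 without untreated culture B. The responses of −0.42 in MDA-MB-468 (adjusted p = 0.465) and 0.01 in MDA-MB-157 (adjusted p = 0.992) did not pass, and the lines differed (F = 11.5, adjusted p = 0.0023).

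BNIP3 and BNIP3L encode receptors that hand mitochondria to autophagy. BNIP3 was at 12.92 and 13.23 in untreated and 11.21 and 11.70 in WHF-treated BT549 cultures and 13.33 and 13.25 against 12.27 and 12.22 in MDA-MB-231. The treated cultures were about 1 to 2 log2 units lower. It was 11.32 and 11.29 against 11.78 and 11.65 in MDA-MB-157, 11.73 and 11.29 against 11.61 and 11.16 in SUM 149 and 10.75 and 10.71 against 10.85 and 10.98 in MDA-MB-468. Treated cultures were the higher ones in MDA-MB-157 and MDA-MB-468, and the groups overlapped in SUM 149. BNIP3 fell with −1.62 in BT549 (adjusted p = 3.79e-05) and −1.05 in MDA-MB-231 (adjusted p = 0.00279), with a standard error of 0.202, gave 0.41 in MDA-MB-157 (adjusted p = 0.333), and differed between the lines (F = 18.2, adjusted p = 0.00039). BNIP3L fell with −0.75 in BT549 (adjusted p = 0.0101) and −0.62 in SUM 149 (adjusted p = 0.0322). The first of these calls was lost at −0.50 without untreated culture B and the second at −0.46 without untreated culture A and −0.61 without WHF-treated culture B.

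ADM and STC1, which encode secreted products, rose in BT549 and MDA-MB-231, the lines in which most of the called glycolytic enzymes fell. ADM, adrenomedullin, a peptide that widens vessels, was at 12.57 and 12.19 in untreated and 13.37 and 13.03 in WHF-treated MDA-MB-231 cultures, 12.26 and 12.30 against 13.65 and 13.29 in BT549 and 9.73 and 9.31 against 10.91 and 10.32 in MDA-MB-157. Treated cultures were higher in all 3 lines without overlap. It was 12.30 and 11.69 against 11.77 and 12.35 in SUM 149 and 9.78 and 10.65 against 10.51 and 10.76 in MDA-MB-468, where the groups overlapped. ADM rose by 1.19 in BT549 (adjusted p = 0.0109), 1.09 in MDA-MB-157 (adjusted p = 0.0528) and 0.82 in MDA-MB-231 (adjusted p = 0.094), with a standard error of 0.307, and gave 0.06 in SUM 149 (adjusted p = 0.927) and 0.42 in MDA-MB-468 (adjusted p = 0.62). The call in MDA-MB-231 was lost without any 1 of its 4 arrays (0.63 to 1.01) and that in MDA-MB-157 at 1.30 without untreated culture A, 0.79 without WHF-treated culture A and 0.88 without untreated culture B. The F test between the lines did not pass for ADM (F = 2.38, adjusted p = 0.204).

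STC1, stanniocalcin, a secreted glycoprotein of calcium and phosphate balance, rose in 2 lines and fell in SUM 149. The STC1 signal was 12.49 and 12.39 in untreated and 10.72 and 10.43 in WHF-treated SUM 149 cultures, and 10.54 and 10.34 against 11.95 and 11.17 in BT549 and 12.32 and 12.70 against 13.48 and 13.04 in MDA-MB-231. The treated cultures were lower in SUM 149 and higher in BT549 and MDA-MB-231, with no overlap in any. It was 5.88 and 5.24 against 6.07 and 6.15 in MDA-MB-157, where 1 array was below background, and 10.52 and 10.18 against 10.89 and 10.68 in MDA-MB-468. Treated cultures were higher in both lines too, without a call. STC1 fell by 1.86 in SUM 149 (adjusted p = 0.000127) and rose by 1.12 in BT549 (adjusted p = 0.00582) and 0.75 in MDA-MB-231 (adjusted p = 0.0698), with a standard error of 0.261, and the lines differed (F = 20.5, adjusted p = 0.00024). The BT549 call was lost at 0.73 without WHF-treated culture A and the MDA-MB-231 call at 0.53 without WHF-treated culture A and 0.56 without untreated culture A.

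NDRG1, a stress-responsive gene long used as a sign of low oxygen, had the smallest p among the 41 genes for a difference between the lines (F = 22.8, adjusted p = 0.000155). The NDRG1 signal was 9.70 and 9.66 in untreated and 11.37 and 11.17 in WHF-treated MDA-MB-157 cultures, 10.45 and 10.55 against 11.44 and 11.81 in BT549 and 13.21 and 12.83 against 12.36 and 12.06 in SUM 149. Treated cultures were higher in MDA-MB-157 and BT549 and lower in SUM 149, without overlap. It was 9.99 and 9.54 against 10.34 and 10.23 in MDA-MB-468, higher in both treated cultures, and 13.35 and 13.10 against 13.14 and 12.76 in MDA-MB-231, where the groups overlapped. NDRG1 rose by 1.59 in MDA-MB-157 (adjusted p = 0.000236), a 3.01-fold change, and by 1.12 in BT549 (adjusted p = 0.00102), and fell by 0.81 in SUM 149 (adjusted p = 0.011), with a standard error of 0.206. The SUM 149 call was lost at −0.62 without untreated culture A and −0.66 without WHF-treated culture B.

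VEGFA, the main growth factor of new vessels, fell by 1.20 in BT549 (adjusted p = 0.0188), a call lost at −0.94 without untreated culture A and −0.73 without WHF-treated culture B. Its responses of 0.86 in MDA-MB-231 (adjusted p = 0.11), 0.94 in MDA-MB-157 (adjusted p = 0.142) and −0.79 in SUM 149 (adjusted p = 0.12) did not pass, whereas a second probe, detected on 20 arrays, was called in those lines with 0.97 (adjusted p = 0.0776), 1.19 (adjusted p = 0.0627) and −1.41 (adjusted p = 0.00872). Both probes had the same sign in each of these lines, and by the first probe the lines differed (F = 8.57, adjusted p = 0.00678). CA12, a membrane carbonic anhydrase, rose by 1.13 in MDA-MB-157 (adjusted p = 0.0863), a call lost without any 1 of the 4 arrays (1.02 to 1.24). HILPDA, which protects lipid droplets, fell by 1.33 in BT549 (adjusted p = 0.00159) and was called in no other line.

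**Figure D3:**
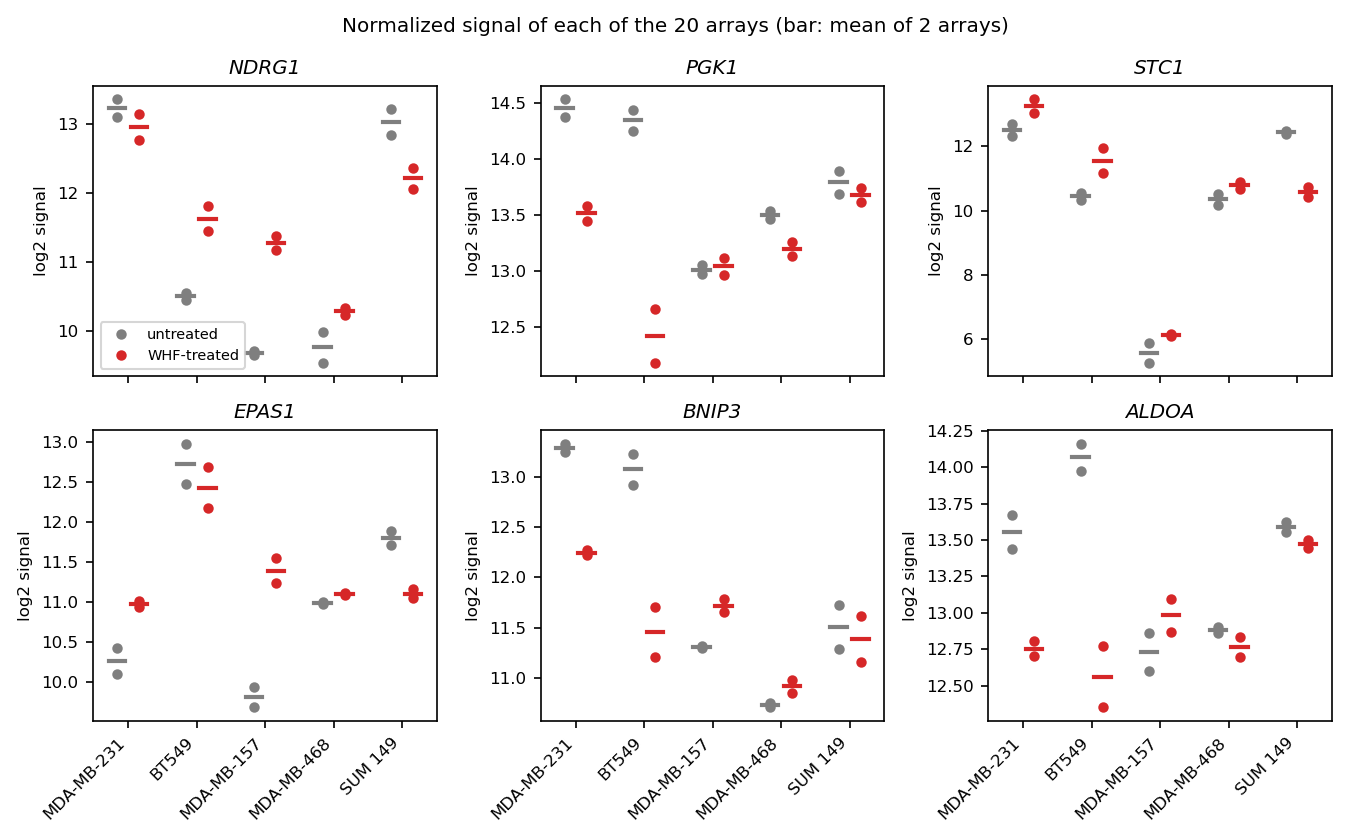
Each dot is the log2 normalized signal of 1 of the 20 arrays for NDRG1, PGK1, STC1, EPAS1, BNIP3 and ALDOA, the 6 genes with the smallest p of the F test between lines, in untreated (grey) and WHF-treated (red) cultures, with a bar at the mean of 2; the vertical axes differ between panels. PGK1, BNIP3 and ALDOA drop in MDA-MB-231 and BT549, while NDRG1 rises in BT549 and MDA-MB-157 and falls in SUM 149.

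Of the collagen-processing genes, P4HA1 was called only lower and P4HA2 in both directions. P4HA1 and P4HA2 encode catalytic subunits of the collagen prolyl hydroxylase. P4HA1 fell with −1.23 in BT549 (adjusted p = 3.98e-05) and −0.67 in MDA-MB-231 (adjusted p = 0.009) and gave −0.39, −0.35 and −0.21 in MDA-MB-157, SUM 149 and MDA-MB-468 without a call. P4HA2 was at 11.75 and 12.05 in untreated and 11.30 and 11.06 in WHF-treated MDA-MB-231 cultures, 13.12 and 13.31 against 12.62 and 12.55 in BT549 and 8.68 and 9.01 against 9.68 and 9.72 in MDA-MB-468. Treated cultures were lower in the first 2 lines and higher in MDA-MB-468, without overlap. It was 12.09 and 12.19 against 12.58 and 12.42 in MDA-MB-157, higher in both treated cultures, and 12.39 and 12.20 against 12.49 and 11.98 in SUM 149, where the groups overlapped. P4HA2 fell with −0.72 in MDA-MB-231 (adjusted p = 0.0194) and −0.63 in BT549 (adjusted p = 0.0272) and rose by 0.85 in MDA-MB-468 (adjusted p = 0.0208), with a standard error of 0.19, and the lines differed (F = 12.1, adjusted p = 0.0019). The calls were lost at −0.60 without WHF-treated culture B and −0.57 without untreated culture B in MDA-MB-231, at −0.54 without untreated culture B and −0.59 without WHF-treated culture B in BT549 and at 0.68 without untreated culture A, 0.87 without WHF-treated culture A and 0.83 without WHF-treated culture B in MDA-MB-468. In MDA-MB-468 a second probe on 20 arrays gave 0.35 (adjusted p = 0.503).

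LOX, which cross-links collagen, rose by 0.92 in MDA-MB-157 (adjusted p = 0.0826), a call lost at 0.43 without WHF-treated culture A and 0.63 without untreated culture B, while the response was 1.40 without WHF-treated culture B. ERO1A, which drives disulfide formation in the endoplasmic reticulum, fell by 0.39 in BT549 (adjusted p = 0.0933), a call lost without any 1 of the 4 arrays (−0.49 to −0.30). KDM3A, a histone demethylase, was called in no line, with responses of −0.38 to 0.30. MXI1, an antagonist of MYC, was not called either, with −0.28 to 0.73 on a probe detected on 15 arrays, although another of its probes, detected on 6, was called in MDA-MB-468 with 1.29 (adjusted p = 0.0204).

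The mRNAs of the HIF subunits themselves rose in MDA-MB-231, a line in which 15 of the 41 genes fell. HIF1A, the oxygen-regulated α subunit, was at 10.10 and 11.18 in untreated and 12.28 and 12.34 in WHF-treated MDA-MB-231 cultures, a rise of 1.67 (standard error 0.246, adjusted p = 0.000363) that held without each array, from 1.13 to 2.21. The untreated pair in that line was 1 log2 unit apart. HIF1A responses in the other lines ran from −0.03 in BT549 (adjusted p = 0.961) to 0.55 in SUM 149 (adjusted p = 0.14) and did not pass on this probe. Another probe, detected on 20 arrays, was called in SUM 149 with 0.71 (adjusted p = 0.0209), and so was one more with 0.54 (adjusted p = 0.099). The F test between the lines passed (F = 7.01, adjusted p = 0.0134). ARNT, the β subunit, was detected on 14 arrays and rose by 0.87 in MDA-MB-231 (adjusted p = 0.0923), lost without any 1 of the 4 arrays (0.68 to 1.07). In MDA-MB-157 ARNT was below background on all 4 arrays, and in SUM 149, with 1 array below background, the response was −0.68 (adjusted p = 0.169).

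EPAS1, the second α subunit, rose in 2 lines and fell in SUM 149. The EPAS1 signal was 9.68 and 9.94 in untreated and 11.55 and 11.24 in WHF-treated MDA-MB-157 cultures, 10.10 and 10.43 against 10.94 and 11.02 in MDA-MB-231 and 11.72 and 11.89 against 11.05 and 11.17 in SUM 149. Treated cultures were higher in MDA-MB-157 and MDA-MB-231 and lower in SUM 149, without overlap. It was 12.98 and 12.48 against 12.69 and 12.17 in BT549, where the groups overlapped, and 10.98 and 11.01 against 11.11 and 11.09 in MDA-MB-468. EPAS1 rose by 1.58 in MDA-MB-157 (adjusted p = 0.000246) and 0.71 in MDA-MB-231 (adjusted p = 0.0302) and fell by 0.70 in SUM 149 (adjusted p = 0.0252), with a standard error of 0.206, and the lines differed (F = 18.9, adjusted p = 0.000335). The MDA-MB-231 call was lost at 0.55 without untreated culture A and 0.68 without WHF-treated culture B and the SUM 149 call at −0.61 without untreated culture B.

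Taking the 5 lines as replicates, with the line as a block, none of the 41 genes passed, compared with 0.0133% of all genes called higher and 0.0465% called lower. At an unadjusted p under 0.05, 6 of the 41 were higher and 9 lower, where 1070 and 1532 of all 15059 genes were. The smallest adjusted p was that of PFKFB4, 0.174, at a mean response of −1.15 (standard error 0.245) that was negative in 5 of 5 lines. HK2 (0.51, adjusted p = 0.186) and ADM (0.72, adjusted p = 0.192) were positive in 5 of 5 lines, and ALDOC was negative in 5 of 5 (−0.67, adjusted p = 0.192). The response differed between the lines for 29 of the 41 genes, compared with 40.1% of all genes, namely 11 of 15 glycolytic enzymes, 2 of 3 regulators of phosphofructokinase, 2 of 3 genes of pyruvate and lactate, 12 of 17 other HIF targets and 2 of 3 HIF subunits. Over the 41 genes, which are not independent replicates, the responses of MDA-MB-231 and BT549 correlated at r = 0.61, and 14 genes were called lower in both, out of 15 in MDA-MB-231 and 23 in BT549. The correlation of these lines over all 15059 genes was 0.43. BT549 with MDA-MB-468 gave 0.51 over the 41 genes and 0.10 over all genes. In the same order, MDA-MB-231 gave 0.48 and 0.14 with MDA-MB-468 and 0.44 and 0.17 with MDA-MB-157. MDA-MB-157 gave 0.41 and 0.25 with BT549 and 0.38 and 0.21 with MDA-MB-468. SUM 149 gave 0.23 and 0.37 with MDA-MB-231, 0.14 and 0.07 with MDA-MB-468 and 0.01 and 0.11 with MDA-MB-157. BT549 and SUM 149 gave −0.05 over the 41 genes and 0.33 over all genes, with 4 genes lower in both. The share of all genes called lower in both lines of a pair was not computed, so these overlaps do not set the 41 apart. The control cultures of a line entered only its own response.

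In untreated cultures, BT549 and MDA-MB-231 held most of the high levels and MDA-MB-468 and MDA-MB-157 most of the low ones. BT549 was the highest line for 19 of the 41 genes and MDA-MB-231 for 10, and the lowest was MDA-MB-468 for 20 and MDA-MB-157 for 17. The same ranking was not made over all genes, so these counts do not set the 41 apart. Relative to the mean of the 5 lines, the median untreated level of the glycolysis genes was 0.70 in BT549, 0.26 in MDA-MB-231, 0.14 in SUM 149, −0.46 in MDA-MB-157 and −0.48 in MDA-MB-468. For the other HIF targets it was 0.87 in MDA-MB-231, 0.63 in BT549, 0.47 in SUM 149, −0.94 in MDA-MB-157 and −1.16 in MDA-MB-468. Only lines of the same chip were tested, because levels of lines on different chips cannot be told apart from the chip.

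Untreated BT549 exceeded untreated MDA-MB-157 in 32 of 41 genes and was below it in 4, compared with 26.8% and 28.2% of all genes. The largest of these differences were in LOX (6.53), STC1 (4.88), CA12 (4.73) and ALDOC (4.61), and 12 of 15 glycolytic enzymes were higher and 2 were lower. The STC1 signal was below background in untreated culture B of MDA-MB-157, so that its difference was measured near the floor. PFKP (−0.93) and PFKFB3 (−0.88) were among the 4 that were lower. The median difference over the 41 genes was 1.33 in untreated and 0.24 in WHF-treated cultures, and for the 15 glycolytic enzymes it was 1.12 and 0.05. The size of the difference was smaller after WHFs in 33 of 41 genes. The share over all genes was not computed, so this count does not set these genes apart. These 2 medians use the same untreated arrays as the responses and were not tested against each other.

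Untreated MDA-MB-468 was below untreated SUM 149 in 29 of 41 genes and above it in 2, compared with 26% and 27.9% of all genes. LDHB (−5.37), ANKRD37 (−4.64), LOX (−4.49) and ALDOC (−4.00) differed most, and the 2 higher genes were EGLN3, which was not detected in SUM 149, and BNIP3L (0.41). All 3 HIF subunits were lower in MDA-MB-468, and so were 12 of 15 glycolytic enzymes and 13 of 17 other HIF targets. The median difference was −0.81 in untreated and −0.61 in WHF-treated cultures, and the difference was smaller in size after WHFs in 25 of 41 genes. For this count too, no share over all genes was computed.

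**Figure D4:**
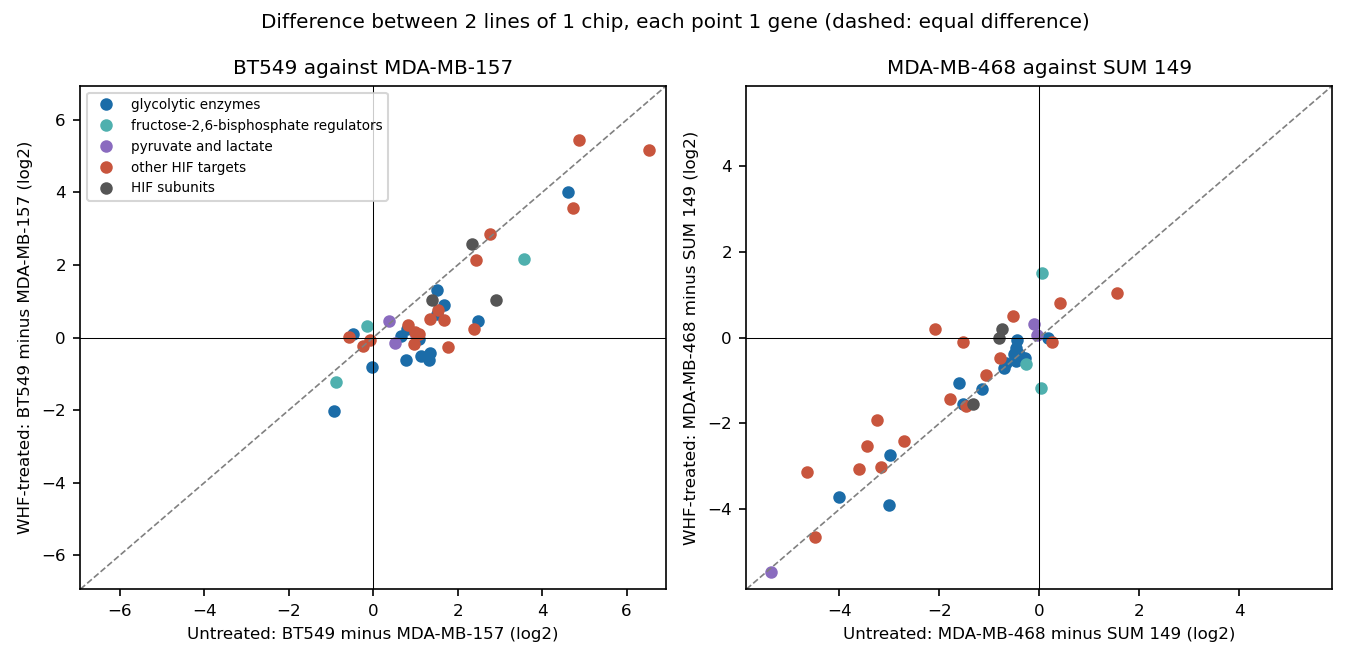
Each point is 1 of 41 genes, with the difference in mean log2 signal between 2 lines of the same chip in untreated cultures on the horizontal axis and in WHF-treated cultures on the vertical axis, and a dashed line where both are equal. For BT549 against MDA-MB-157 most points on the right lie below the dashed line (medians 1.33 and 0.24), and for MDA-MB-468 against SUM 149 they lie nearer to it (medians −0.81 and −0.61).

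Other genes of the same pathways were counted from lists drawn up for this purpose. Earlier results of these data were known when the lists were made, so these counts are no independent support. Of 21 measured further genes of glucose uptake, glycolysis and glycogen, 1 was higher and 8 lower in BT549, 2 and 5 in MDA-MB-231, 3 and 0 in MDA-MB-157, 2 and 3 in SUM 149 and 1 and 1 in MDA-MB-468. The lower calls made up 38.1% of the list in BT549 and 23.8% in MDA-MB-231, where 16.5% and 12.4% of all genes were called lower, and the higher calls 14.3% in MDA-MB-157, compared with 3.9% of all genes. In SUM 149 the shares of 9.52% and 14.3% were near those of all genes, 12% and 17%. In MDA-MB-468 they were 4.76% in each direction, compared with 3.15% and 2.94% of all genes. SLC2A3, a glucose transporter with high affinity, had responses of 1.97 in MDA-MB-157 (adjusted p = 2.48e-05), 1.45 in MDA-MB-231 (adjusted p = 0.000238), −0.90 in BT549 (adjusted p = 0.00466) and −1.38 in SUM 149 (adjusted p = 0.000183). It rose in the first 2 lines and fell in the others, and 1 of the 2 treated SUM 149 cultures was below background. PGM2, a phosphoglucomutase, rose in BT549, MDA-MB-231 and SUM 149 by 1.30, 1.14 and 1.12. GBE1, the glycogen branching enzyme, gave −1.20 in BT549 (adjusted p = 0.000235), −0.92 in MDA-MB-231 (adjusted p = 0.00353), −0.64 in MDA-MB-468 (adjusted p = 0.0776) and 0.80 in MDA-MB-157 (adjusted p = 0.0174). The MDA-MB-468 call of GBE1 was lost without any 1 of its 4 arrays (adjusted p of 0.154 to 0.47) and that of MDA-MB-157 without culture A of either group (adjusted p = 0.131 and 0.168). PGAM4, a near-identical copy of PGAM1 whose probe may read both, gave −1.22 in BT549 and −0.78 in MDA-MB-231.

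Of 24 further hypoxia targets, 3 were higher and 10 lower in BT549, 2 and 4 in MDA-MB-231, 1 and 2 in MDA-MB-157, 3 and 3 in SUM 149 and 0 and 1 in MDA-MB-468. In MDA-MB-157 these were 4.17% and 8.33%, compared with 3.9% and 5.33% of all genes. In MDA-MB-468 they were 0% and 4.17%, compared with 3.15% and 2.94%. The 41.7% called lower in BT549 compares with 16.5% of all genes, while the 12.5% called higher there, the 8.33% and 16.7% called higher and lower in MDA-MB-231 and the 12.5% called in each direction in SUM 149 lay near or below the shares of all genes, which were 13.4%, 8.79% and 12.4%, and 12% and 17%. AK4, a mitochondrial adenylate kinase, fell with −2.36 in BT549 (adjusted p = 5.35e-06), −1.52 in MDA-MB-231 (adjusted p = 0.000604) and −1.05 in SUM 149 (adjusted p = 0.00524). ANGPTL4, a secreted inhibitor of lipoprotein lipase, rose in MDA-MB-231 and fell in BT549, with 3.18 in MDA-MB-231 (adjusted p = 0.00104) and −2.66 in BT549 (adjusted p = 0.00205). PPP1R3C, a glycogen-targeting phosphatase subunit, gave 1.21 in BT549, −0.92 in MDA-MB-157 and −0.68 in MDA-MB-468, all called, of which the MDA-MB-468 call was lost without any 1 of its 4 arrays (adjusted p of 0.284 to 0.352) and the MDA-MB-157 call without culture A of either group (adjusted p = 0.195 and 0.127). RAB20, a small GTPase, fell at least 2.01-fold in BT549 to below background. Of 15 genes that control HIFs, 5 were lower and 1 higher in SUM 149, 3 lower in MDA-MB-231, and 2 lower and 1 higher in BT549, with none called in MDA-MB-157 or MDA-MB-468. Few of all genes were called in MDA-MB-157 (3.9% higher and 5.33% lower) and MDA-MB-468 (3.15% and 2.94%), so that no call among 15 says little. The lower calls were 33.3%, 20% and 13.3% of this list, compared with 17%, 12.4% and 16.5% of all genes in SUM 149, MDA-MB-231 and BT549. The higher calls were 6.67% of it in SUM 149 and in BT549, compared with 12% and 13.4% of all genes. The coactivators EP300 and CREBBP fell with −2.03 in SUM 149 (adjusted p = 0.000534) and −1.15 in SUM 149 (adjusted p = 0.00713), and CITED2, which competes with HIFs for these coactivators, fell with −2.31 in SUM 149 (adjusted p = 0.00772). These sizes depended on treated culture B, whose signal was below background for EP300, and without it the responses of EP300, CREBBP and CITED2 were −1.26, −0.64 and −0.93 (adjusted p = 0.00319, 0.123 and 0.0785), so that the CREBBP call was lost. Without treated culture A, CITED2 gave −3.69. RBX1, of the ligase that degrades HIF α subunits, fell in BT549 with −0.74.

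At the step from pyruvate to the citrate cycle, PDK4 and PDK3, kinases that restrain pyruvate dehydrogenase, went opposite ways in MDA-MB-231 and BT549 and both fell in MDA-MB-157. PDK4 rose in MDA-MB-231 and BT549 and fell in MDA-MB-157, with 3.38 in MDA-MB-231 (adjusted p = 4.04e-05), at least 6.46-fold from below background in BT549 (adjusted p = 4.23e-05) and −1.92 in MDA-MB-157 (adjusted p = 0.00714), and the lines differed (F = 33.8, adjusted p = 2.77e-05). PDK3 fell in 4 lines, with −1.56 in MDA-MB-231, −1.43 in MDA-MB-157, −1.32 in BT549 and −0.95 in SUM 149. IDH1, the cytosolic isocitrate dehydrogenase, fell in MDA-MB-231, BT549 and SUM 149 with −1.27, −1.10 and −0.83, and PDHX, a structural part of pyruvate dehydrogenase, rose in BT549 with 1.15. Of the 28 genes measured for this step and the cycle, 5 were higher and 4 lower in BT549, 3 and 4 in MDA-MB-231, 1 and 2 in MDA-MB-157, 4 and 3 in SUM 149 and 1 and 1 in MDA-MB-468. These shares lay near those of all genes, with 17.9% higher and 14.3% lower in BT549, compared with 13.4% and 16.5%, and 10.7% and 14.3% in MDA-MB-231, compared with 8.79% and 12.4%. They were 14.3% and 10.7% in SUM 149, compared with 12% and 17%. In MDA-MB-157 they were 3.57% and 7.14%, compared with 3.9% and 5.33%, and in MDA-MB-468 3.57% in each direction, compared with 3.15% and 2.94%.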

How the data were processed

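RNA of 20 cultures was amplified, biotin-labelled and hybridised to Illumina HumanHT-12 beadchips. The deposited intensity values are average bead signals per probe, which the authors exported from BeadStudio without normalization, and each comes with a deposited detection p-value against negative control probes. A second table, with intensity values that the authors had quantile-normalized, served as an alternative. The array version given in the methods differs from that of the probe annotation.

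Bead signals were background-corrected and quantile-normalized with neqc (offset 16) in limma 3.58.1 under R 4.3.3, and 29551 of 47319 probes with detection p under 0.05 on at least 2 arrays were kept. GEO's annotation gave 1 gene symbol for 30112 probes, several for 8 and none for 17199, and 30073 symbols were found by gene ID. One probe stood for each gene, that with the highest mean signal. A linear model with 10 groups of 2 was fitted with lmFit and eBayes, so that the spread was pooled over all groups. Contrasts were the response of each line, its difference between the lines (F test) and the untreated levels of lines on the same chip. The response over 5 lines was fitted to line means with the line as a block. P-values were adjusted by Benjamini-Hochberg over all 29551 probes, with a threshold of 0.1. Those of the fit with 10 groups measure the spread between cultures of a line, of which there were 2 per group, and this number limits the precision. Those of the response over 5 lines measure the spread of the responses between the lines.

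The members and the lists were chosen with earlier results of these data known. Values in every culture are given for members called in at least 3 lines and for the 6 with the smallest p of the F test, and other members are named by role. Of other pathway genes, up to 4 called genes per list, by the size of the moderated statistic, are named. Alternatives were no background correction, the authors' normalized values, an offset of 50, a filter of at least 10 arrays, calls of more than 2-fold, a trended robust prior, the mean over a gene's probes, the replicate letter as a block, and leaving out each array or line. Leaving out each array for the named genes of other pathways was added after seeing the data. The fits were tested on simulated data. Sequences are from RefSeq (GRCh38.p14), with promoters found for 37 of the 44 listed genes. Summaries and figures were made with Python 3.11.15, pandas 2.3.3 and matplotlib 3.10.9.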

Additional observations from a re-analysis of the deposited data

Results flagged for a closer look

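The response to WHFs differed between the 5 lines for 29 of the 41 genes, by limma's F test of the interaction of line and treatment. By the same test it differed for 40.1% of all genes. The smallest adjusted p-values were those of NDRG1 (adjusted p = 0.000155), PGK1 (adjusted p = 0.000189), STC1 (adjusted p = 0.00024), EPAS1 (adjusted p = 0.000335), BNIP3 (adjusted p = 0.00039) and ALDOA (adjusted p = 0.000578). NDRG1, STC1 and EPAS1 were called higher in some lines and lower in SUM 149, whereas PGK1, BNIP3 and ALDOA were called only lower, and only in MDA-MB-231 and BT549.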

How the results depend on the processing

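No call of a gene in a line changed direction under any alternative. Of 68 such calls, 2 were lost with the authors' normalized values, 2 without background correction, 7 with the mean over a gene's probes, 40 where more than 2-fold was required, and none with an offset of 50 or a trended robust prior. Of 272 refits without 1 array, 81 lost the call. The higher calls in MDA-MB-231 numbered 5, and 8 without background correction, with the authors' values, with an offset of 50 and with the trended prior. In SUM 149 the 1 higher call became 4 without background correction, with the authors' values and with the trended prior, 3 with an offset of 50 and 2 with probes detected on at least 10 arrays, and the 8 lower calls became 13 without background correction and with the authors' values. The 2 lower calls in MDA-MB-468 became 1 without background correction, with the authors' values and with the filter of 10 arrays. At more than 2-fold, higher and lower calls were 1 and 4 in MDA-MB-231, 4 higher in MDA-MB-157 with 0 lower, 0 and 3 in SUM 149 and 0 and 1 in MDA-MB-468, and 12 were lower in BT549. The 2 genes higher in untreated MDA-MB-468 than in SUM 149 became 1 with the filter of 10 arrays, at more than 2-fold and with the mean over probes, and the 4 lower in untreated BT549 than in MDA-MB-157 became 0 at more than 2-fold. Without 1 array, the higher calls ranged from 1 to 3 in MDA-MB-231, from 2 to 5 in BT549, from 2 to 6 in MDA-MB-157 and from 0 to 1 both in SUM 149 and in MDA-MB-468. The lower calls were 0 in MDA-MB-157 and ranged from 1 to 2 in MDA-MB-468. Genes higher in untreated MDA-MB-468 than in SUM 149 ranged from 1 to 2, and those lower in untreated BT549 than in MDA-MB-157 from 2 to 3. The shares of all genes were not computed under these alternatives, so these counts do not set the genes apart. The causes were not tested.

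The deviations of cultures with the same letter from their group means correlated at 0.0388, 0.0566, 0.242, 0.183 and 0.143 in MDA-MB-231, BT549, MDA-MB-157, MDA-MB-468 and SUM 149, so that not every pair passed 0.1 and the letters were not taken as pairs. The study's methods describe treated and untreated cells of the lines as paired, with a second, independent preparation. The sample labels do not say whether the letters mark these preparations. With the replicate letter as a block, 3 of the 68 calls were lost, the higher calls became 1 in MDA-MB-468 and 3 in SUM 149, and over the 5 lines 5 genes were higher and 9 lower of 41, compared with 8.27% and 11.6% of all genes. The spread in this fit is that between cultures and not between lines. For the counts of single lines with this block, no share over all genes was computed. With 2 cultures per group, and with PDK1 and EGLN3 detected on 6 of 20 arrays, small responses and dim genes were measured least well.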
